A study of Mus musculus with 6 samples.

Results

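The metallothionein and iron handling genes are 10 genes chosen by symbol: Mt1, Mt2, Hamp, Hamp2, Slc39a14, Tfrc, Trf, Fth1, Ftl1 and Slc40a1. All 10 were measured, on 15 of the 39429 non-control probes of the array, and they are 10 of the 17996 genes tested. They were profiled in liver RNA of 3 Itpr2 KO mice and 3 wild-type mice, all untreated C57Bl/6 animals of a survival cohort killed at 23 months of age. Itpr2 encodes an intracellular calcium channel that opens in response to inositol trisphosphate. The labels give neither the sex of the mice nor how the knockout was made, and the series design calls the animals independent. Each liver was hybridised to its own 1-colour Agilent array. Levels below are log2 signals minus the 75th percentile of their array, changes are Itpr2KO minus WT, and arrays are called KO 1 to KO 3 and WT 1 to WT 3.

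Metallothioneins are small cysteine-rich proteins that bind zinc and copper, and in liver their genes are induced by zinc, glucocorticoids and inflammatory cytokines through the zinc-sensing factor MTF1 and other factors. Hepcidin, the peptide made from Hamp, is the liver hormone of iron balance: it binds ferroportin, the iron exporter encoded by Slc40a1, and causes its removal from the cell surface. Hamp transcription follows iron stores through bone morphogenetic proteins (BMP) and SMAD factors, and inflammation through IL-6 and STAT3. Transferrin, encoded by Trf, carries iron in plasma to the transferrin receptor, encoded by Tfrc, whose mRNA is stabilised when cells are low in iron, and ferritin, built from Fth1 and Ftl1 chains, stores it.

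Promoter sequence from RefSeq (build GRCm38.p6) was available for 7 of the 10 genes. The pairs Mt1 and Mt2, on chromosome 8, and Hamp and Hamp2, on chromosome 7, are printed because the results below turn on how far the genes of each pair moved together. Each line holds the 250 bases before the annotated start, read 5′ to 3′ on the strand of the gene. The Mt1 window is chr8:94178839-94179088 on the plus strand and the Mt2 window chr8:94172368-94172617 on the plus strand. Capitals mark the letters TGCACNC or TGCGCNC on either strand, the core of the metal response element that MTF1 binds.
Mt1: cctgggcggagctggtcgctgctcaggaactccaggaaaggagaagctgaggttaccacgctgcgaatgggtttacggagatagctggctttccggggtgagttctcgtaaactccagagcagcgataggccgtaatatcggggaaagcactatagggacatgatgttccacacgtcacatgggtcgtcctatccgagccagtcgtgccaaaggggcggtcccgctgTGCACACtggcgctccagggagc
Mt2: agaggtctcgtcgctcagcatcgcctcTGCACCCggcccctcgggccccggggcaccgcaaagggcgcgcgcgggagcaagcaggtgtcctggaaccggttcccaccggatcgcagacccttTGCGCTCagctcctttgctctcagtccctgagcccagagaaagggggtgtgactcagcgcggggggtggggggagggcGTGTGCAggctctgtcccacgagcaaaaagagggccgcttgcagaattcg

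Over the full 300-base windows, which also hold the 50 bases after the start, Mt1 had 3 of these matches and Mt2 had 4. Of 32851 annotated windows of that length, 25.7% held at least 1 match and 1.97% held 3 or more. In the RefSeq gene table no gene lies between Mt1 and Mt2.

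The Hamp window is chr7:30944030-30944279 and the Hamp2 window chr7:30924182-30924431, both on the minus strand. Capitals mark GGCGCC, the core of a BMP response element, and TTCTTGGAA, a STAT site, searched on both strands.
Hamp: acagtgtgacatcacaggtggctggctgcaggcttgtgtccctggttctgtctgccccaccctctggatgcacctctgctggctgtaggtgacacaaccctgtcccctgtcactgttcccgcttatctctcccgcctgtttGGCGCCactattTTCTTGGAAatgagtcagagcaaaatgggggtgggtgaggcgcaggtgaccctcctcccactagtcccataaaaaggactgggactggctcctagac
Hamp2: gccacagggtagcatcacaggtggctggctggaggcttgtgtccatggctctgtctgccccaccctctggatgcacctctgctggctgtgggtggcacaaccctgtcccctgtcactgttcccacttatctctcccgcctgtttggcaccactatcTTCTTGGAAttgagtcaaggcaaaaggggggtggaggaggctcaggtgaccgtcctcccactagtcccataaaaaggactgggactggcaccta

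Both windows held the STAT letters, which 0.417% of the annotated windows hold, and Hamp alone of the pair held GGCGCC, which 11.9% hold. The windows aligned over 247 bases with 91.9% identity and 20 differences. One of the differences, G145A (Hamp base, position from 1 at the 5′ end of the Hamp window, Hamp2 base), lies inside the GGCGCC of Hamp. These matches describe letters in a window and not binding.

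Every one of the 8 hepatocyte markers checked, Alb among them, was well above background on all 6 arrays. The share of probes well above background ran from 57.6% to 59.5% per array and none were saturated; precision is set by there being 3 arrays a genotype. Itpr2 itself had levels of 2.41, 2.25 and 2.06 on KO 1 to KO 3, against 2.91, 2.94 and 2.96 on WT 1 to WT 3. Its change was -0.70 ± 0.14 (SE), with an unadjusted p of 0.00167 and an adjusted p of 0.817 in limma. Where the probe that stands for Itpr2 lies relative to the deleted part was not analysed here, so it does not check the labels. KO 3 and WT 1 stood apart by skeletal muscle transcripts, with a log2 summed marker signal of 5.48 on KO 3, against -1.84 to -1.49 on the other 4 arrays and 5.41 on WT 1. The changes of the 10 genes were therefore also taken without these 2 arrays. The log2 summed signal of 2 of 5 fat cell markers differed widely too. It was -5.57, 0.085 and 3.41 on KO 1 to KO 3, against 0.17, -2.99 and -3.08 on WT 1 to WT 3. The part of such tissue in the values below was not tested. KO 1, WT 1 and WT 2 lay on slide 1 and KO 2, KO 3 and WT 3 on slide 2, so values within each slide are given as well.

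**Figure D1:**
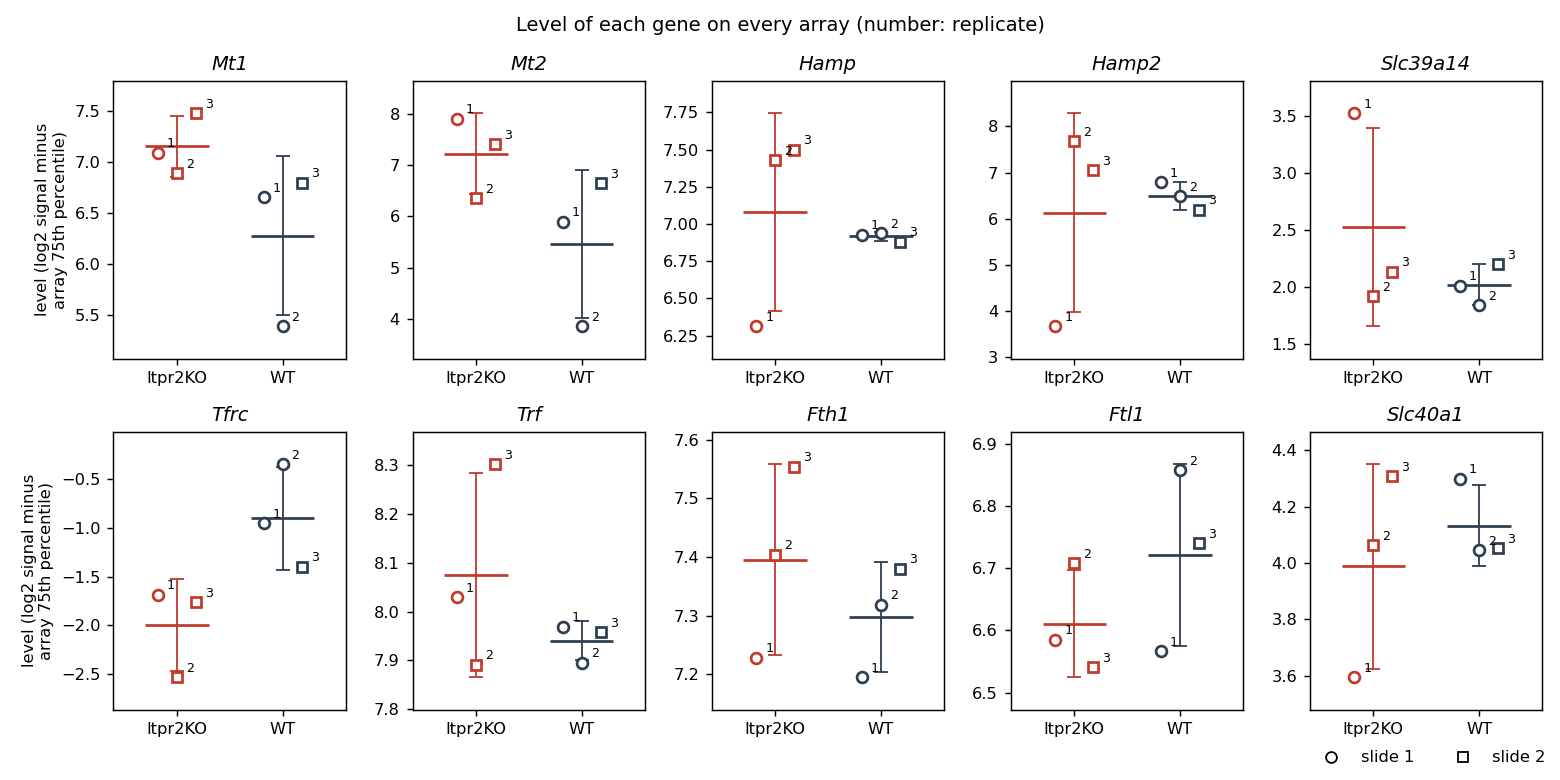
Level of each of the 10 genes on every array, as log2 signal minus the 75th percentile of the array, with Itpr2KO at left and WT at right in each panel. Points are arrays with their replicate number, circles slide 1 and squares slide 2, and lines and bars the mean and SD of 3 arrays. Mt1 and Tfrc are the 2 genes whose genotypes do not overlap, and KO 1 is far from the other arrays for Hamp2 and Slc39a14.

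None of the 10 genes passed the adjusted threshold of 0.05 (limma, Benjamini-Hochberg over all 17996 genes), with adjusted p between 0.817 and 0.957. In whole liver RNA, here and below, fewer cells of a type and less RNA per cell cannot be told apart. At that threshold 1 gene of all tested, Mansc4, was called, which is 0.00556%. At an unadjusted p under 0.05 limma gave 1 of the 10 genes, Tfrc, where 6.03% of all genes had such a p, 3.23% with a higher and 2.80% with a lower mean in Itpr2KO. The genotypes did not overlap for Mt1, which was higher in Itpr2KO as were 6.42% of all genes, and for Tfrc, which was lower as were 5.51%. Of the 10 genes 6 had a higher mean, where 52.4% of all genes did, and their median change was 0.12 beside 0.013 for all genes.

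Both metallothionein genes had higher means in the Itpr2KO livers, and both varied widely among the wild-type livers. The level of Mt1, on the brighter of its probes, was 7.09, 6.89 and 7.48 on KO 1 to KO 3, against 6.65, 5.39 and 6.79 on WT 1 to WT 3. All 3 knockout arrays lay above all wild-type arrays, and WT 2 was the lowest. The change of Mt1 was 0.87 ± 0.39 (SE), or 1.83-fold, with a 95% interval of -0.071 to 1.81 and an exact two-sided permutation p of 0.1, the smallest that 3 against 3 arrays allow.

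The level of Mt2 was 7.91, 6.36 and 7.41 on KO 1 to KO 3, against 5.90, 3.85 and 6.65 on WT 1 to WT 3. The genotypes overlapped, since KO 2 lay below WT 3, and WT 2 was again the lowest array. The change of Mt2 was 1.76 ± 0.76 (SE), or 3.38-fold, with a 95% interval of -0.064 to 3.58 and a limma adjusted p of 0.817. The wild-type livers alone spanned 6.97-fold for Mt2 and 2.65-fold for Mt1, between WT 2 and WT 3. The SD of Mt2 among wild-type arrays was higher than that of 99.1% of the genes, and that of Mt1 higher than that of 96.9%.

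A second Mt1 probe, designed to the predicted transcript XM_006530752, moved over a far wider range. Its level was 3.54, -0.72 and 0.82 on KO 1 to KO 3, against -1.23, -4.33 and -0.63 on WT 1 to WT 3. This probe was detected above background on every array, was highest on KO 1 and lowest on WT 2, and its genotypes overlapped at KO 2 and WT 3. The change on this probe was 3.28 ± 1.33 (SE), with an unadjusted p of 0.0449 and an adjusted p of 0.810 over 22304 probes in the limma fit. What part of an Mt1 transcript this probe reads was not tested, and its change of 3.28 stands beside 0.87 on the brighter probe.

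WT 2 carried much of the metallothionein difference. Without it the change was 0.43 for Mt1 and 0.95 for Mt2. Within slide 1, which holds WT 2 and KO 1, the changes were 1.07 for Mt1 and 3.04 for Mt2, and within slide 2 they were 0.39 and 0.23. Without KO 3 and WT 1 they were 0.90 and 1.88, and with normexp background correction 0.34 and 1.17. With the mean of its 2 probes Mt1 had a change of 2.07.

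Mt1 and Mt2 varied together across the 6 livers. Pearson's r between them was 0.94 (exact permutation p = 0.0139, adjusted p = 0.0208 over the 3 pairs of genes correlated here) and Spearman's rho was 0.89 (exact p = 0.0333, adjusted p = 0.05). The genes were chosen with earlier results of these data known, and the adjustment covers only these 3 of their pairs. Here and below the p-values of correlations are therefore descriptive. Leaving out WT 2 and KO 3, the arrays farthest from the Mt1 median, r was 0.92. Both genotypes were pooled here, so r also holds the higher Itpr2KO mean that both genes had. The 2 genes are similar in sequence, and signal shared between their probes was not tested.

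Of 13570 other named genes, Slc30a1 was among the 3 most like Mt2 over the 6 arrays by Pearson's r, behind Stac2 and Rhebl1. Slc30a1 encodes the zinc exporter of the plasma membrane and is, like the metallothioneins, a known target of MTF1. Its level was 0.37, 0.15 and 0.23 on KO 1 to KO 3, against 0.073, -0.14 and 0.22 on WT 1 to WT 3. Its correlation with Mt2 was r = 0.98, and the 6 arrays stood in the same order for both genes. Its range was far narrower than that of Mt2, and its change was 0.20 ± 0.15 (SE). With 6 arrays such likeness is common: 25 genes had an r over 0.95 with Mt2 and 31 with Mt1, where Ninj1, Gmds and Ddn led.

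Of the other genes around the metallothioneins none passed the adjusted threshold. Mtf1, the zinc-sensing factor, had a change of -0.23 ± 0.14 (SE), and Mt3, the metallothionein best known from brain, one of 0.087 ± 0.22. Mt4, known from stratified epithelia, had levels of -4.70, -4.66 and -1.75 on KO 1 to KO 3, against -4.83, -4.65 and -4.504 on WT 1 to WT 3, so that KO 3 alone was high. Its change was 0.96 ± 0.78 (SE), with a limma adjusted p of 0.855. Among the 11 of 13 zinc importers measured, 7 had a higher mean and 4 a lower one, and the median was 0.029, and among the 7 of 10 exporters measured 2 were higher and 5 lower, with a median of -0.068. Slc39a1 and Slc39a7, the brightest importers, had changes of 0.22 ± 0.17 (SE) and -0.10 ± 0.17, and Slc30a4 and Slc30a5, the brightest exporters, 0.21 ± 0.19 and -0.24 ± 0.16. The copper chaperones Atox1 and Ccs had changes of -0.12 ± 0.13 and 0.13 ± 0.14.

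Glucocorticoid-induced genes, listed because metallothioneins belong to that response, had a higher mean for 5 of 8 members and a median change of 0.34. Their log2 summed signal was 7.63, 6.81 and 7.58 on KO 1 to KO 3, against 7.36, 6.52 and 7.22 on WT 1 to WT 3, lowest on WT 2 and next lowest on KO 2. The mean deviation of the 8 genes from their own means over the 6 arrays was also lowest on WT 2, at -0.51, and next lowest on KO 2, at -0.24. Single members differed, and Dusp1 was highest on WT 2, at 1.12, and next highest on KO 2, at 0.90. WT 2 and KO 2 are also the arrays with the lowest Mt2 of their genotype, and the part of this response in the metallothionein values was not tested. Zbtb16, a transcription factor induced by glucocorticoids, was the 1 member with an unadjusted p under 0.05, with levels of 0.93, 0.76 and 0.20 on KO 1 to KO 3, against -0.095, -0.72 and -0.24 on WT 1 to WT 3. Its change was 0.98 ± 0.25 (SE), with a limma adjusted p of 0.817.

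**Figure D2:**
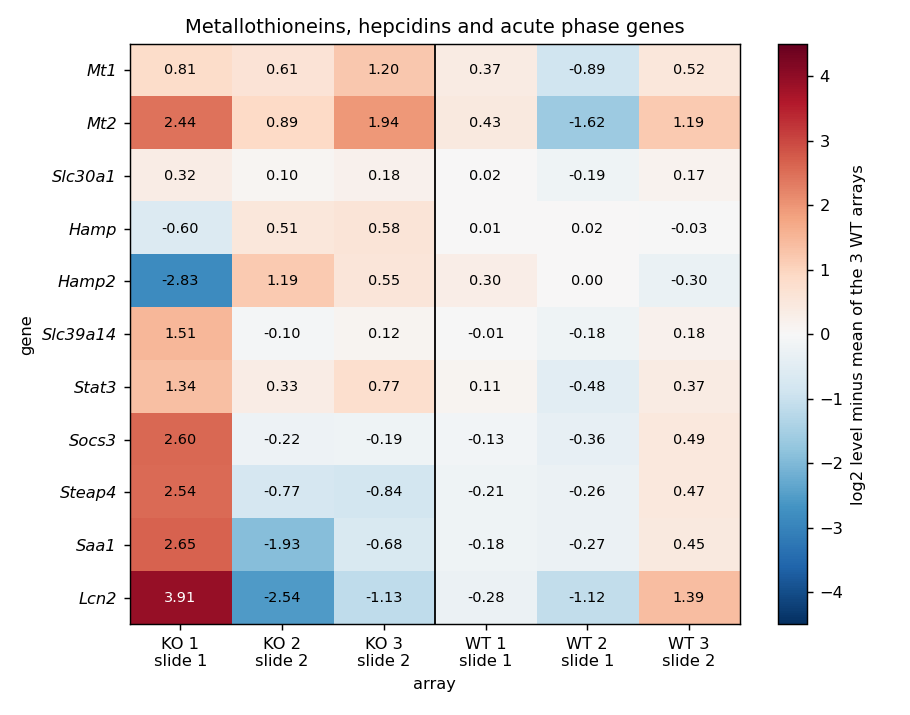
Log2 level of 11 genes (rows) on each array (columns, Itpr2KO at left, WT at right), given as the difference from the mean of the 3 WT arrays, with red for higher and blue for lower. Mt2 is lowest on WT 2, at -1.62. KO 1 has Hamp2 at -2.83 and Slc39a14 at 1.51, beside Socs3 at 2.60, Steap4 at 2.54, Saa1 at 2.65 and Lcn2 at 3.91.

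Both hepcidin genes split among the knockout livers, and Hamp was almost uniform among the wild-type livers. Hamp had levels of 6.31, 7.43 and 7.50 on KO 1 to KO 3, against 6.93, 6.94 and 6.88 on WT 1 to WT 3. KO 1 lay below and KO 2 and KO 3 above all wild-type arrays. The SD of Hamp was 0.67 in Itpr2KO and 0.030 in WT, at percentile 3.39 of the SDs of all genes among wild-type arrays. The change was 0.16 ± 0.32 (SE), with a 95% interval of -0.61 to 0.94 and a limma adjusted p of 0.941. Its direction was not stable, with -0.011 without KO 2, -0.046 without KO 3 and 0.55 without KO 1.

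Hamp2, the second hepcidin gene of the mouse, showed the same split more widely. Its level was 3.67, 7.68 and 7.05 on KO 1 to KO 3, against 6.79, 6.49 and 6.20 on WT 1 to WT 3. KO 1 lay far below and KO 2 and KO 3 above all wild-type arrays, so that the knockout livers spanned 16.1-fold and the wild-type livers 1.51-fold. Its SD among wild-type arrays, 0.30, stood at percentile 78.6 of all genes. The change was -0.36 ± 0.99 (SE), with a 95% interval of -2.75 to 2.03 and a limma adjusted p of 0.957, and it turned to 0.87 without KO 1. Within slide 1 it was -2.97 and within slide 2 it was 1.16.

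Hamp and Hamp2 kept the order of arrays closely, with r = 0.91 (exact permutation p = 0.0111, adjusted p = 0.0208) and rho = 0.89 (exact p = 0.0333, adjusted p = 0.05). Without KO 1 and KO 3 r was 0.95, and without KO 1 alone 0.82. The difference of Hamp2 minus Hamp was -2.64 on KO 1, 0.25 on KO 2 and -0.45 on KO 3, against -0.13, -0.45 and -0.68 on WT 1 to WT 3. The promoter windows of the 2 genes, printed above, had 91.9% identity. Their transcripts were not compared, and signal shared between their probes was not tested. Genes most like Hamp2 were Fmc1, Atp5g2 and Auh, with r of at least 0.99, and those most like Hamp were Ndufa4, Tent2 and Whamm. There were 87 genes with an r over 0.95 for Hamp2 and 108 for Hamp.

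Slc39a14 encodes ZIP14, which takes up zinc and iron not bound to transferrin and is induced in liver by IL-6. Its level was 3.52, 1.92 and 2.13 on KO 1 to KO 3, against 2.01, 1.84 and 2.20 on WT 1 to WT 3. KO 1 alone was high and the other 5 arrays lay within 0.36 of each other. The change was 0.51 ± 0.42 (SE), with a limma adjusted p of 0.855, and without KO 1 it was 0.0078. Slc39a14 and Hamp2 were related inversely, with r = -0.94 (exact permutation p = 0.0486, adjusted p = 0.0486), but rho was -0.60 (exact p = 0.242, adjusted p = 0.242) and without KO 1 r was -0.34, so that the relation rests on KO 1.

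KO 1 was also the array with the highest summed signal of acute phase transcripts. The log2 summed signal of 19 of 20 acute phase genes was 11.53, 10.71 and 11.25 on KO 1 to KO 3, against 10.85, 10.61 and 11.06 on WT 1 to WT 3. Within that list Hpx, Hp, Fgb, Fgg and Itih4 were highest on KO 3 instead. The following genes were chosen after their values were seen. Socs3, the feedback inhibitor that STAT3 induces, had 3.08, 0.26 and 0.29 on KO 1 to KO 3, against 0.34, 0.12 and 0.96 on WT 1 to WT 3. Steap4, a metalloreductase of iron and copper induced by inflammation, had 3.36, 0.044 and -0.025 on KO 1 to KO 3, against 0.61, 0.56 and 1.29 on WT 1 to WT 3. Lcn2, a protein that binds bacterial iron carriers, was at 7.74 on KO 1, against 5.23 on WT 3, the highest wild-type array. On KO 1, therefore, Hamp and Hamp2 were at their lowest while Socs3, Steap4, Lcn2 and Slc39a14 were at their highest. Neutrophil markers were high there too, with a log2 summed signal of 5.84, 2.51 and 5.17 on KO 1 to KO 3, against 3.71, 3.103 and 3.94 on WT 1 to WT 3, and their part in these values was not tested.

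Among the genes that control hepcidin, the IL-6 and STAT3 list had a higher mean for 6 of 6 members, and its median change was 0.22. That median was 0.80 within slide 1 and -0.0037 within slide 2, and the mean deviation of its genes from their means over the 6 arrays was 0.82, -0.24 and -0.019 on KO 1 to KO 3, against -0.13, -0.41 and -0.026 on WT 1 to WT 3. KO 1 alone was high. Stat3, itself the factor that binds the STAT site, had levels of 4.38, 3.38 and 3.81 on KO 1 to KO 3, against 3.15, 2.56 and 3.42 on WT 1 to WT 3, and the genotypes overlapped at KO 2 and WT 3. The change of Stat3 was 0.81 ± 0.32 (SE), with an unadjusted p of 0.0418 and a limma adjusted p of 0.817. Of the BMP and SMAD list 20 of 21 genes were measured, 11 with a higher and 9 with a lower mean and a median of 0.038. Tmprss6, the protease that restrains this pathway, had a change of 0.16 ± 0.18 (SE), and Creb3l3, a liver factor of the endoplasmic reticulum that can activate Hamp, one of -0.19 ± 0.16. Erfe, the signal that red cell precursors send to suppress hepcidin, was at background on every array.

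Tfrc, the transferrin receptor, was lower in the Itpr2KO livers on both of its measured probes. On the brighter probe its level was -1.68, -2.53 and -1.76 on KO 1 to KO 3, against -0.95, -0.34 and -1.40 on WT 1 to WT 3. All 3 knockout arrays lay below all wild-type arrays, with KO 2 the lowest and WT 2 the highest. The change was -1.09 ± 0.34 (SE), or 0.468 of the WT level, with a 95% interval of -1.91 to -0.28, an unadjusted p of 0.0163 and a limma adjusted p of 0.817. The exact two-sided permutation p was 0.1, the smallest that this design allows.

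The second Tfrc probe gave -2.42, -3.06 and -2.80 on KO 1 to KO 3, against -1.70, -1.28 and -2.09 on WT 1 to WT 3, again without overlap. Its change was -1.07 ± 0.26 (SE), with an unadjusted p of 0.00497 and an adjusted p of 0.810 over all probes. The remaining Tfrc probe was on no array well above background and was not fitted. The change on the brighter probe was -1.04 within slide 1, -0.75 within slide 2 and -1.24 without KO 3 and WT 1, and ran from -1.34 to -0.82 when 1 array was left out. With normexp background correction it was 0.024, a setting under which the median change of all genes was 0.13, against 0.013 here.

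Macrophages recycle iron from red cells, so markers of Kupffer cells and of red cells are given beside Tfrc. The mean was lower for 10 of 10 Kupffer cell markers, and the median change was -0.59. In limma 5 of them had an unadjusted p under 0.05, where 2.80% of all genes had such a p with a lower mean. None of these markers passed the adjusted threshold. Their log2 summed signal was 7.10, 6.67 and 6.98 on KO 1 to KO 3, against 8.01, 7.04 and 7.66 on WT 1 to WT 3, and the genotypes overlapped at KO 1 and WT 2. WT 2 had the highest Tfrc and the lowest Kupffer signal of the wild-type arrays. The log2 summed signal of 10 of 16 red blood cell markers was 8.24, 8.13 and 8.88 on KO 1 to KO 3, against 8.06, 8.17 and 8.50 on WT 1 to WT 3, and Rhag, a marker of red cell precursors, was on no array well above background. The part of either cell type in the Tfrc values was not tested.

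**Figure D3:**
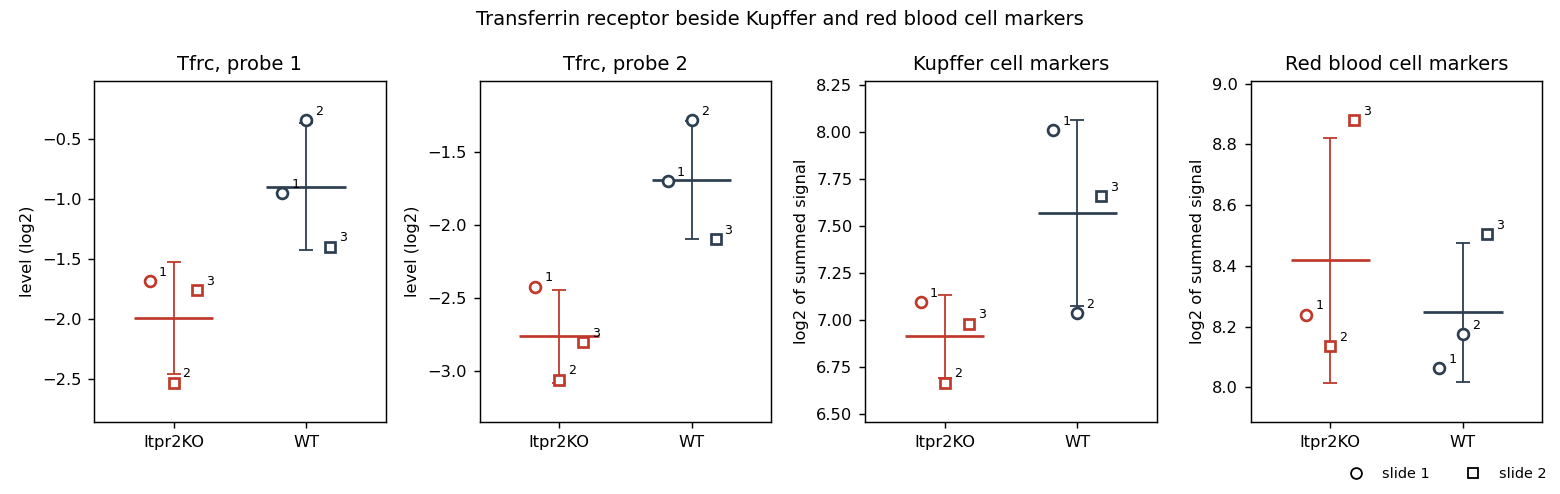
Level of Tfrc on its 2 measured probes, and log2 summed signal of 10 Kupffer cell and 10 red blood cell markers, on every array with Itpr2KO at left and WT at right. Points are arrays with their replicate number, circles slide 1 and squares slide 2, and lines and bars the mean and SD of 3 arrays. The genotypes do not overlap on either Tfrc probe, and they overlap for both marker lists.

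The genes of iron transport, storage and export differed little in the reported fit. Trf had levels of 8.03, 7.89 and 8.30 on KO 1 to KO 3, against 7.97, 7.89 and 7.96 on WT 1 to WT 3, a change of 0.13 ± 0.15 (SE) with a 95% interval of -0.22 to 0.49. KO 1 and KO 3 stood above the wild-type arrays and KO 2 did not, and a second Trf probe had a change of 0.14 ± 0.22. Fth1, the ferritin heavy chain, had levels of 7.23, 7.40 and 7.55 on KO 1 to KO 3, against 7.19, 7.32 and 7.38 on WT 1 to WT 3, and the genotypes overlapped. The change of Fth1 was 0.098 ± 0.14 (SE) with an interval of -0.24 to 0.43. With normexp the changes of Trf and Fth1 were -0.37 and -0.47, and those of Ftl1 and Slc40a1 were -0.44 and -0.72.

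Ftl1, the ferritin light chain, had levels of 6.58, 6.71 and 6.54 on KO 1 to KO 3, against 6.57, 6.86 and 6.74 on WT 1 to WT 3, with overlap. The change was -0.11 ± 0.13 (SE), with an interval of -0.43 to 0.21, and its second probe gave 0.13 ± 0.17, so the probes had opposite signs. Both ferritin genes have many processed copies in the genome, and signal from these was not tested. Slc40a1, the exporter that hepcidin removes, had levels of 3.59, 4.06 and 4.31 on KO 1 to KO 3, against 4.30, 4.04 and 4.05 on WT 1 to WT 3. KO 1 was the lowest array and the others lay close together, and the change was -0.14 ± 0.21 (SE), with an interval of -0.65 to 0.36, and 0.053 without KO 1. For Trf, Fth1 and Ftl1 the SD over the 6 arrays was lower than in most genes, at percentiles 22.8, 14.7 and 12.6, whereas Mt2 and Hamp2 stood at percentiles 98.8 and 98.7.

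**Figure D4:**
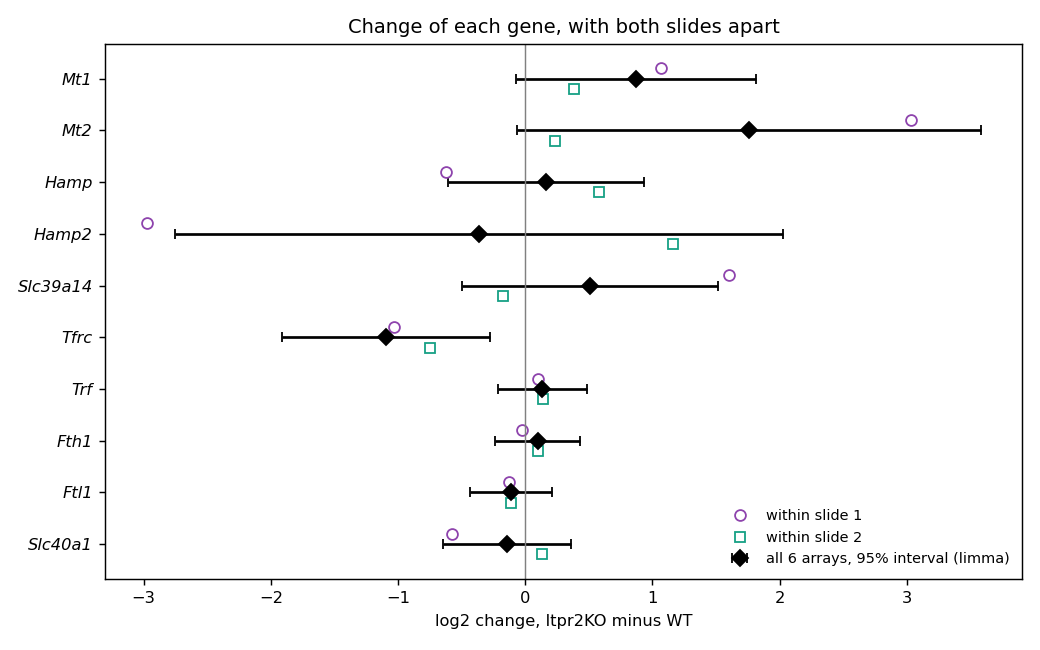
Log2 change of each gene, Itpr2KO minus WT (diamonds, with the 95% interval of the limma fit over 6 arrays), with the change within slide 1 (circles) and slide 2 (squares). The interval of Tfrc, -1.91 to -0.28, is the 1 interval of 10 that leaves out 0, and the changes of Hamp, Hamp2, Slc39a14, Fth1 and Slc40a1 have opposite signs within the 2 slides.

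Other genes of iron, heme, zinc and copper handling were read from lists. Each gene counted once, 100 of 111 were measured, of which 50 had a higher and 50 a lower mean, with a median change of -0.0019. None passed the adjusted threshold in the limma fit and 1, Stat3, had an unadjusted p under 0.05. For iron uptake 6 of 8 had a higher mean, with Tfr2, the iron sensor of hepatocytes, at 0.14 ± 0.18 (SE) and Lrp1, a receptor that clears heme bound to hemopexin, at 0.29 ± 0.23. Pcbp1, a chaperone that loads iron into ferritin, had levels of 5.13, 5.32 and 5.11 on KO 1 to KO 3, against 5.45, 5.43 and 5.35 on WT 1 to WT 3, without overlap. Of the 100 genes 4 were lower without overlap and 2 higher, where 5.51% of all genes were lower and 6.42% higher. The change of Pcbp1 was -0.22 ± 0.12 (SE). Cp, the plasma ferroxidase, had a change of 0.10 ± 0.29.

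The proteins that bind iron-responsive elements in ferritin and Tfrc mRNA showed no shared direction. Aco1, the first of them, had a change of -0.20 ± 0.16 (SE) and Fbxl5, the iron-sensing factor that marks the second for degradation, one of -0.11 ± 0.15. Ireb2, the second protein, had a higher mean, with levels of -4.13, -3.63 and -3.25 on KO 1 to KO 3, against -4.31, -3.98 and -4.30 on WT 1 to WT 3, overlapping at KO 1 and WT 2. Its change was 0.53 ± 0.24 (SE), with a limma adjusted p of 0.817. Of 17 heme genes 8 had a higher and 9 a lower mean, with a median of -0.0052, and the plasma scavengers Hpx and Hp had changes of 0.23 ± 0.22 and 0.093 ± 0.17. Of 14 genes of mitochondrial iron and iron-sulfur assembly 11 had a lower mean, and the list had a median of -0.075 and a range of -0.26 to 0.091. Glrx5 and Hspa9 among them had changes of -0.20 ± 0.26 and -0.010 ± 0.15. For acute phase genes 17 of 20 had a higher mean, and the median was 0.22 over all arrays, 1.504 within slide 1 and -0.34 within slide 2. The fibrinogen chain gene Fgg had a change of 0.23 ± 0.20.

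**Figure D5:**
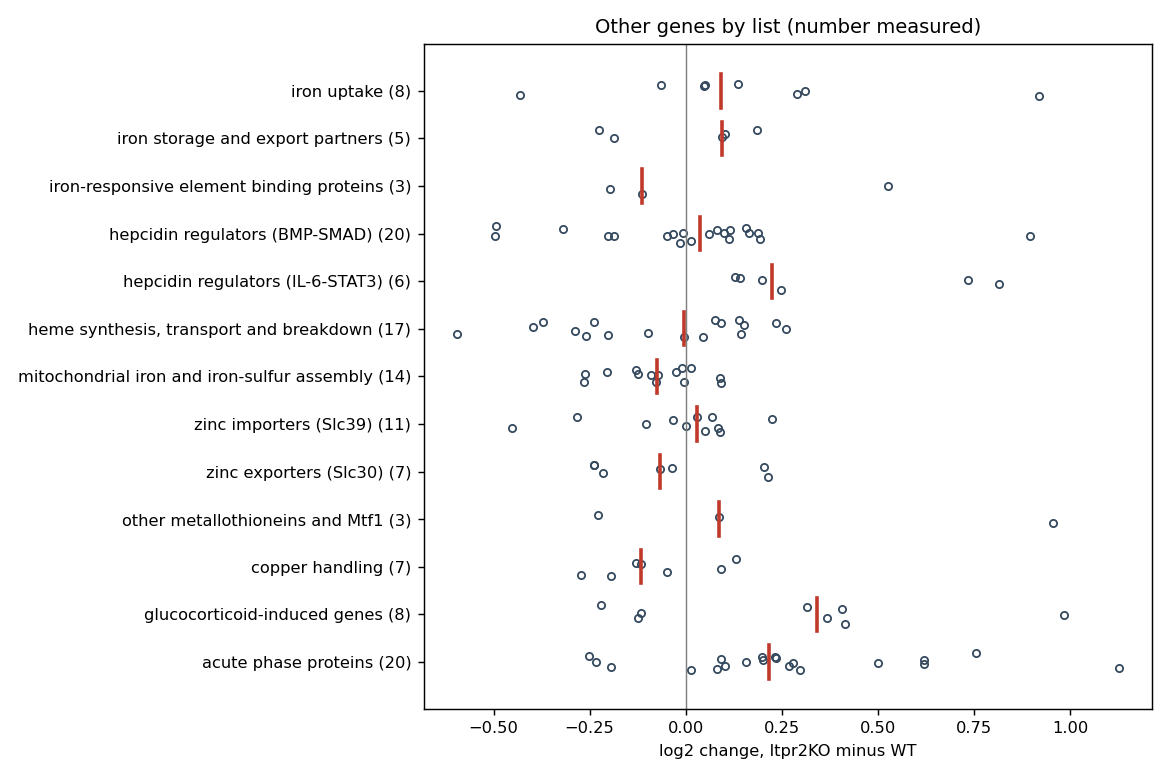
Log2 change, Itpr2KO minus WT, of every measured gene of 13 lists (circles, 1 per gene) with the median of each list (red line). Medians lie between -0.12 for copper handling and 0.34 for glucocorticoid-induced genes, and no gene shown passed the adjusted threshold.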

How the data were processed

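Liver RNA of 3 Itpr2 KO and 3 wild-type mice was run on 1-colour (Cy3) Agilent mouse arrays, per the labels' protocols. The deposited intensity tables were made by Feature Extraction, whose version is 11.5.1.1 in the headers and 10.7.3.1 in the submitters' processing notes, with a grid of build mm9. Their processed intensity is background-subtracted and not scaled between arrays, per the file headers. The authors' deposited log2 matrix of 20644 probes served as an alternative. Set against the scanner tables it matched log2 signals scaled as below and centred on each probe's median. Its column medians were -0.0127, 0.0106 and 0.00617 for KO 1 to KO 3, and 0.00207, -0.0094 and 0.00497 for WT 1 to WT 3. Its columns for KO 2 and KO 3 matched the scanner tables of KO 3 and KO 2 best, with r of 0.9997 and 0.9995, and the scanner tables decide the names used here.

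Values were log2 processed intensity minus the 75th percentile of the array over non-control spots. Control spots and 818 outlier spots were left out and spots of a probe averaged. Accessions gave 28330 of 39429 probes 1 gene symbol and 11099 none, through a RefSeq table of GRCm38.p6 used for names and promoters. Probes had to be well above background on the 3 arrays of either genotype, and a gene was read from its probe of highest mean. Genotypes were compared with limma 3.58.1 in R 4.3.3 (two-sided, Benjamini-Hochberg adjustment over all genes), tested on simulated data. A log2 summed signal is the log2 of the sum of unlogged scaled signals over a list's measured genes.

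The 10 genes and the lists were chosen with earlier results of these data known. Named beside them were genes of each list with an unadjusted p under 0.05, or else its 2 brightest, and the 3 genes most correlated with Mt1, Mt2, Hamp and Hamp2. Replicate numbers are shared between genotypes, but same-numbered arrays did not deviate together, with correlations of -0.19, 0.042 and -0.28, so no pairing was fitted in the values reported.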

Additional observations from a re-analysis of the deposited data

How the results depend on the processing

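None of the 10 genes passed the adjusted threshold under any alternative with a test, with limma adjusted p from 0.218 to 1.00. The count over all genes, 1 here, was 0 with normexp background correction, with probes above background on all 6 arrays, with the replicate block and, in an alternative chosen after seeing the data, without KO 3 and WT 1. It ran from 0 to 2 when 1 array was left out. Within single slides no count was taken. Mt1 and Mt2 kept their direction under all alternatives run. The following changes had the other sign. Normexp, run on median spot signals for want of a mean signal column, gave -0.41 for Hamp, -0.11 for Slc39a14, 0.024 for Tfrc, -0.37 for Trf and -0.47 for Fth1. It moved the median of all genes to 0.13 and gave 5879 genes an unadjusted p under 0.05, against 1085 in the reported fit, and the cause was not tested. Quantile scaling gave -0.017 for Hamp and -0.051 for Fth1. The slide as a block gave -0.020 for Hamp. Ftl1 had 0.13 on its second probe and 0.0085 with the mean of its probes. Leaving out 1 array in turn gave -0.046 (without KO 3), -0.011 (without KO 2) and up to 0.55 (without KO 1) for Hamp, -1.14 to 0.87 for Hamp2 and -0.30 to 0.053 for Slc40a1, the last 2 highest without KO 1. Without KO 3 and WT 1, Hamp had -0.041 and Fth1 -0.033. The replicate block left the estimates of Mt1 and Mt2 at 0.87 and 1.76 and that of Tfrc at -1.09. It cannot move them, since each block holds 1 array of each genotype. With it 0 of the 10 genes were called, and 3 had an unadjusted p under 0.05 in limma, against 1 in the reported fit. Replicate numbers do not pair the arrays. One of 3 Tfrc probes was at background and gave no value.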
